A study of Mus musculus with 6 samples.

Results

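Fragments of arginine transfer RNA (tRNA) were described in 6 small RNA libraries of mouse eye tissue: the retinal pigment epithelium (RPE) with the choroid and sclera, from males aged 7 to 8 weeks. Members were chosen by name: every row that begins with tRF-Arg, which gave 20 of 460 tRNA fragments (tRFs) and of 2334 small RNAs in all. The anticodon written in the name divides them into 12 ACG rows, 6 TCG rows, 1 CCT row and 1 TCT row. In the choroidal neovascularization (CNV) group, 25 laser burns per eye (532 nm, 100 mW, 0.1 s, 50 µm) were placed around the optic disc, and tissue was taken 7 days later. Laser burns break the membrane beneath the RPE, and choroidal vessels then grow through the gap. The control group came from mice of the same age that received no laser. There were 3 libraries per group, each a pool of 4 eyes. The labels give neither the strain nor whether pools shared animals. Each p-value therefore compares pools and not animals, and the spread between pools may be partly technical.

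Cytosolic tRNAs are cut by ribonucleases into short RNAs. Angiogenin, a secreted ribonuclease first known for inducing vessel growth, cuts stressed cells' tRNAs in the anticodon loop and gives the longer products called tiRNAs, while shorter pieces from either end are called tRFs. Arginine is read by several isoacceptors: the ACG anticodon, whose first base is edited to inosine, and TCG serve the CGN codons, whereas TCT and CCT serve AGA and AGG. Of the 38 tiRNA rows, 0 were named for arginine, so no listed arginine tiRNA could be set beside the tRFs.

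In the RefSeq gene table of assembly GRCm38.p6, 24 nuclear tRNA genes were arginine tRNAs, with 6 for ACG, 5 for TCG, 5 for TCT, 5 for CCT and 3 for CCG. Of the 20 rows, 0 were named for CCG. The number of rows did not follow the number of genes, since CCT and TCT each had 5 genes and 1 row. Sequences behind the serial numbers of the fragments were not used here, so the parent tRNAs are shown instead. The first 25 bases of an ACG and of a TCG gene show how far the 5′ ends of these isoacceptors differ. The ACG gene n-TRacg6 neighbours Prmt5 and the TCG gene n-TRtcg5 neighbours Polg, and both are printed 5′ to 3′ from the plus strand of GRCm38 as held in RefSeq's promoter table, with the bases that differ between them in capitals.
n-TRacg6: ggGcCAgtggcGCaatggataaCgc
n-TRtcg5: ggCcGCgtggcCTaatggataaGgc
They shared 19 of these positions and differed at 6. How the authors' mapping assigned reads from shared stretches is unknown here, so counts of near-identical fragments are uncertain to that extent.

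Whole tRNAs are shown for TCG and TCT, whose lower shares in CNV are described below, and for the mitochondrial arginine tRNA, mt-Tr, which also has a TCG anticodon. Below, capitals mark the anticodon. The TCT gene n-TRtct2 is on the minus strand and was read from the GENCODE M21 transcript of Gm17494 that spans it, and mt-Tr, on the plus strand, is its GENCODE transcript.
n-TRtcg5: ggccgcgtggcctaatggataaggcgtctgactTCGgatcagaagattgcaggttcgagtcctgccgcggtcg
n-TRtct2: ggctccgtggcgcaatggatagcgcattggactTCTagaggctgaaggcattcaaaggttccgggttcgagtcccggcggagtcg
mt-Tr: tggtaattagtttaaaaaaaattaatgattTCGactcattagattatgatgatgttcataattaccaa
The TCT gene spans 85 bases against 73 for the TCG gene, because TCT genes of this kind carry a short intron after the anticodon that is spliced out. The deposited names do not say whether a TCG fragment came from a nuclear tRNA or from mt-Tr.

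Arginine tRFs were a small family. The control libraries held 1126, 3246 and 1034 arginine counts and the CNV libraries 1395, 1475 and 1582, of library totals between 5057142 and 12839386. Control replicate 2 was the deepest. By summed counts arginine ranked 13 of 21 tRF families. All 20 rows were counted in every library, with counts from 1 to 831. The rows had been listed by abundance: each tRF-Arg row reached at least 20.77 in the deposited CPM column in some library. A row could thus be listed through a single library or group. Only control libraries reached that level for tRF-Arg-TCT-007, tRF-Arg-CCT-001, tRF-Arg-TCG-002, tRF-Arg-TCG-010, tRF-Arg-TCG-012, tRF-Arg-TCG-015 and tRF-Arg-ACG-001. For tRF-Arg-ACG-017 only a CNV library did. On the low-count filter, 18 of the 20 passed, and tRF-Arg-ACG-001 and tRF-Arg-TCG-015 did not.

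Fragments named ACG made up 91.9% of all arginine counts, against 6.16% for TCG, 1.16% for TCT and 0.822% for CCT. Within the ACG group 5 rows carried most of the reads. The most abundant was tRF-Arg-ACG-012, followed by tRF-Arg-ACG-003, tRF-Arg-ACG-013, tRF-Arg-ACG-002 and tRF-Arg-ACG-011. Levels are depth-scaled counts (CPM), with each library total adjusted by trimmed mean of M-values (TMM) and no length term, and the plot of levels by library shows all 20 rows.

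**Figure D1:**
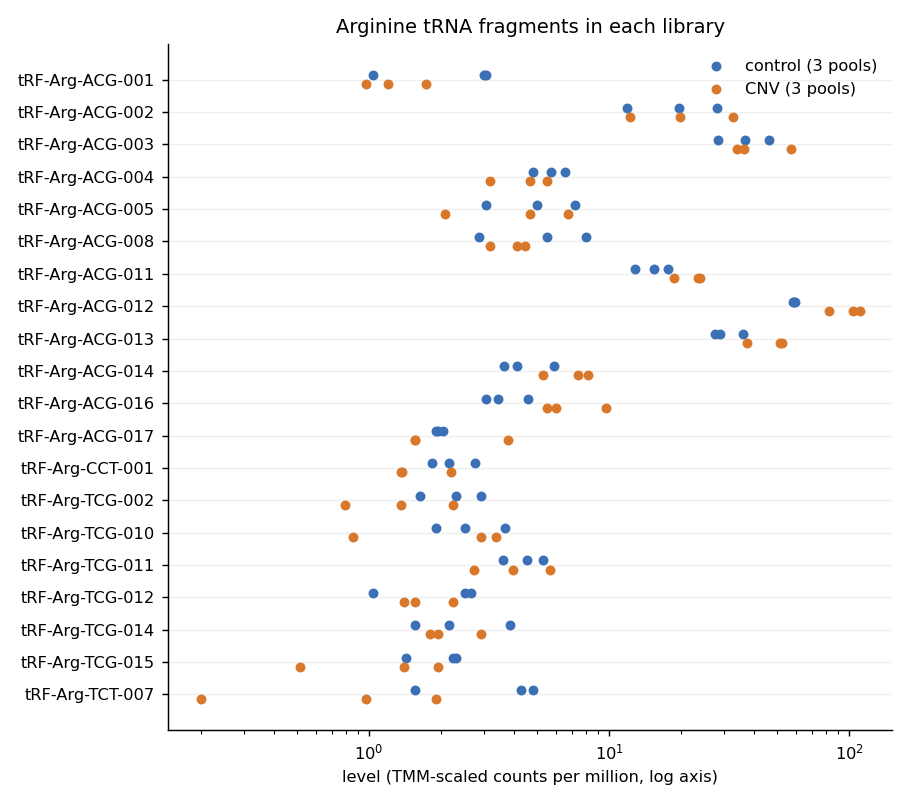
Level of each arginine tRF (x axis, TMM-scaled CPM, log axis) in the 3 control (blue) and 3 CNV (orange) pools, a point per pool. The 3 CNV points of tRF-Arg-ACG-012, tRF-Arg-ACG-013, tRF-Arg-ACG-011 and tRF-Arg-ACG-016 lie to the right of their 3 control points, and the TCG and CCT rows overlap between groups.

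For each anticodon, the shares of the arginine reads did not overlap between the 2 groups, with a limit from the listing given below. This comparison sets the anticodons against each other inside each library, so no scaling between libraries enters it. The ACG share was 90.9%, 90.0% and 88.3% in control replicates 1 to 3 and 94.6%, 94.9% and 93.5% in CNV replicates 1 to 3. Every CNV pool lay above every control pool, and the means were 89.8 ± 1.34% and 94.3 ± 0.714% (SD, n = 3; difference 4.54 percentage points, two-sided exact permutation p = 0.1, the smallest that 3 against 3 allows). The exact 95% binomial intervals ran from 86.2% to 92.6% over the control libraries and from 92.2% to 95.9% over the CNV libraries. They cover counting error only, since reads without molecular identifiers are not independent molecules.

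The TCG share was 6.84%, 6.99% and 8.80% in control and 4.59%, 4.34% and 5.31% in CNV. All CNV values lay below all control values, with means of 7.54 ± 1.09% and 4.75 ± 0.504% (exact permutation p = 0.1). For TCT the share was 0.799%, 2.06% and 2.03% in control and 0.358%, 0.0678% and 0.695% in CNV. These groups did not overlap either, although the TCT values rest on 9, 67 and 21 counts in control and 5, 1 and 11 in CNV. The CCT share was 1.42%, 0.924% and 0.870% in control and 0.502%, 0.746% and 0.506% in CNV, from 7 to 30 counts per library, again without overlap (exact permutation p = 0.1 for both). Adjusted over the 4 shares each p was 0.1. The 4 shares add up to 100%, so a higher ACG share means that the others are lower together, and these are not 4 separate results. The TCT row, the CCT row and most TCG rows reached the listed level only in control libraries. Their lower shares in CNV, the higher ACG share and the ratios to ACG therefore cannot be told apart from the listing.

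**Figure D2:**
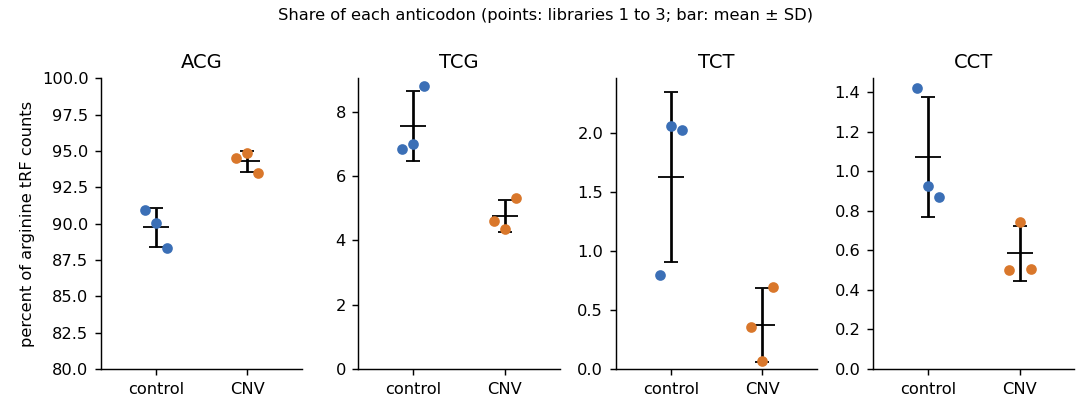
Share of each anticodon in the arginine tRF counts of a library (y axis, percent; the ACG panel starts at 80, the others at 0), a point per library with mean ± SD. ACG is higher in all 3 CNV libraries (93.5% to 94.9%) than in any control library (88.3% to 90.9%), and TCG, TCT and CCT are lower. Most rows of these 3 anticodons reached the listed level only in control libraries.

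All 6 pairs of anticodons were compared by the log2 ratio of their summed counts, with 0.5 added to each sum. There were 13.2, 12.9 and 9.98 ACG counts per TCG count in control and 20.5, 21.7 and 17.5 in CNV. The ratio was thus 1.66-fold higher in CNV (log2 difference 0.73, from 3.58 ± 0.223 to 4.31 ± 0.160; exact permutation p = 0.1, adjusted over 6 pairs 0.2). For ACG against CCT the ratio was 1.87-fold higher (log2 difference 0.90), and for ACG against TCT 5.25-fold higher (log2 difference 2.39), both with p = 0.1 in the exact permutation test and 0.2 adjusted. In each of these 3 pairs the lowest CNV pool exceeded the highest control pool. All 3 share the ACG sum, so they are not 3 separate results. Among the rarer anticodons the groups overlapped: the log2 difference was -0.17 for CCT against TCG, 1.49 for CCT against TCT and 1.66 for TCG against TCT (exact permutation p = 0.6, 0.3 and 0.2; adjusted 0.6, 0.36 and 0.3). The TCT ratios moved with single libraries. For ACG against TCT the log2 difference was 1.59 without CNV replicate 2, which had 1 TCT count, and 3.02 without CNV replicate 3. Without CNV replicate 2 it was 0.515 for CCT against TCT and 0.92 for TCG against TCT. The direction for CCT against TCG turned without control replicate 1 (0.11) and without CNV replicate 3 (0.0035).

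A fit over all small RNAs that took each library's ACG total as its library size gave the same comparison with an error taken across features. This fit was chosen after the data were seen, and most of the rows set against ACG reached the listed level only in control libraries. Relative to ACG, TCG was at a log2 fold change of -0.73 (SE 0.23), TCT at -2.19 (SE 0.59) and CCT at -0.91 (SE 0.37). The adjusted p was 0.0691, 0.0518 and 0.125 in edgeR's quasi-likelihood test, so none passed the threshold of 0.05. How many of all small RNAs passed in this fit was not counted, and the ACG sum was itself higher in CNV. These values therefore cannot be read as particular to the arginine rows.

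As levels, the sum of the ACG fragments was 177, 210.0 and 186 CPM in control and 257, 278 and 254 CPM in CNV. The groups did not overlap on this scale, with means of 191 ± 17.2 and 263 ± 13.3 CPM. Scaled by total counts alone, they did. The TCG sum was 13.3, 16.3 and 18.6 CPM in control and 12.5, 12.7 and 14.4 CPM in CNV, which overlapped. The TCT row was at 1.55, 4.82 and 4.29 CPM in control against 0.972, 0.199 and 1.89 CPM in CNV, and the lowest control pool lay below the highest CNV pool. For CCT the levels were 2.76, 2.16 and 1.84 CPM against 1.36, 2.19 and 1.38 CPM, also overlapping.

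With each anticodon summed into a single row and the table scaled anew, the log2 fold change was 0.42 for ACG (SE 0.14), -0.32 for TCG (SE 0.21), -0.50 for CCT (SE 0.34) and -1.82 for TCT (SE 0.62). The adjusted p was 0.217, 0.514, 0.534 and 0.217 in edgeR's quasi-likelihood test, so 0 of 4 were called, where 0.203% of all rows of that table were. At an unadjusted p under 0.05 there were 2, ACG (higher) and TCT (lower). In the table of single small RNAs, 10.8% were higher and 6.92% lower at this cut. The signs of all 4 were the same under each of the 4 other scalings tried. The size for ACG depended on the scaling, from 0.43 with relative log expression factors to 0.31 with total counts only and 0.073 with the totals behind the deposited CPM column. In this table total counts alone put the median of all small RNAs at -0.11, against 0.0045 under TMM.

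The whole arginine family stood at 194, 233 and 211 CPM in control and 271, 294 and 272 CPM in CNV. The groups did not overlap on the TMM scale, and they did with total counts only. Its log2 fold change was 0.35 (SE 0.14, adjusted p 0.255 in edgeR's quasi-likelihood test), and it was not called, as 0.204% of the rows in that table were. Without tRF-Arg-ACG-012 it was 0.18, and with the totals behind the deposited CPM column 0.0028.

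Single fragments were then tested in the whole table of 997 small RNAs. None of the 18 tested members passed an adjusted p of 0.05 in edgeR's quasi-likelihood test, where 0.301% of all tested small RNAs did. DESeq2 gave an adjusted p for 8 of the 18 members, all of them ACG rows, and for 707 of all 997 small RNAs. It called 1 member, tRF-Arg-ACG-012, against 5.66% of the small RNAs with an adjusted p. At an unadjusted p under 0.05 in edgeR 4 members were higher and 1 was lower, against 10.8% and 6.92% of all tested small RNAs. The share of members with the groups apart on the TMM scale was 4 of 18 upward and 0 downward, against 11.4% and 8.93% of all. With total counts only it was 3 of 18 upward and 0 downward, and the balance over all tested small RNAs turned, to 7.32% upward and 12.8% downward. The median log2 fold change of the tested members was -0.11, with 8 of 18 positive, and that of all 421 tested tRFs was 0.07.

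**Figure D3:**
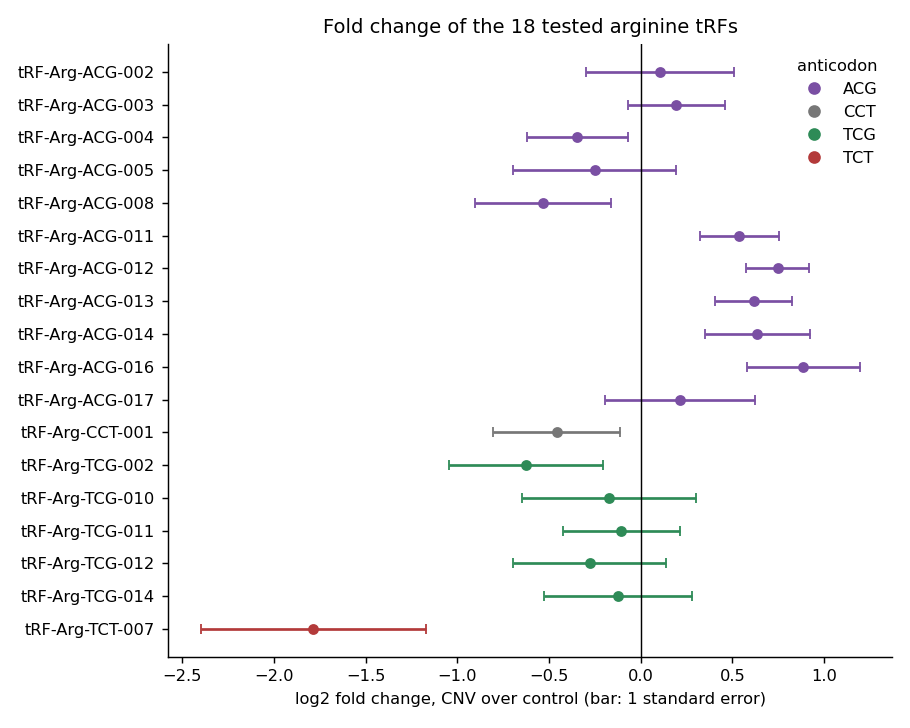
Log2 fold change (x axis, CNV over control) of the 18 tested arginine tRFs, coloured by anticodon, with bars of 1 standard error. ACG fragments 011 to 017 lie right of 0, between 0.21 and 0.89, and the TCG, CCT and TCT rows left of it, between -1.78 and -0.11. The other ACG fragments are divided: 002 and 003 lie at 0.11 and 0.19, and 004, 005 and 008 at -0.35, -0.25 and -0.53.

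The fragment with the most reads, tRF-Arg-ACG-012, had 341, 831 and 285 counts in the control libraries and 535, 555 and 478 in the CNV libraries. Its level was 58.8, 59.7 and 58.2 CPM in control and 104, 110.4 and 82.2 CPM in CNV. The control pools were nearly equal, and every CNV pool was higher, with replicate 3 the lowest of them. The mean went from 58.9 ± 0.777 to 98.9 ± 14.8 CPM, a 1.68-fold difference (log2 0.75, SE 0.17; adjusted p 0.127 in edgeR and 0.0126 in DESeq2). Over the 15 alternatives fitted, its log2 fold change lay between 0.34 and 0.78 and its adjusted p between 0.0126 and 0.507.

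The other abundant fragments with neighbouring serial numbers were higher in CNV as well, without passing the adjusted test. For tRF-Arg-ACG-013 the levels were 36.2, 28.9 and 27.6 CPM in control and 52.7, 51.7 and 37.6 CPM in CNV. CNV replicate 3 lay only just above control replicate 1, and with total counts alone these groups overlapped (log2 0.62, SE 0.21, adjusted p 0.202 in edgeR). For tRF-Arg-ACG-011 they were 15.4, 12.8 and 17.6 CPM in control and 23.5, 23.9 and 18.6 CPM in CNV, which did not overlap (log2 0.54, SE 0.22, adjusted p 0.252 in edgeR). Among the rarer rows, tRF-Arg-ACG-016 had 15 to 64 counts per library, with 3.70 ± 0.800 CPM in control and 7.09 ± 2.31 CPM in CNV (log2 0.89). The row tRF-Arg-ACG-014 was at 4.57 ± 1.19 and 6.96 ± 1.46 CPM (log2 0.63, groups overlapping), and tRF-Arg-ACG-017 at 1.96 ± 0.0740 and 2.29 ± 1.29 CPM (log2 0.21). The fold changes of 011, 012, 013, 014 and 016 were positive under every alternative fitted, while that of 017 was negative in 2 of 14.

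A different pattern was seen in the ACG fragments with low serial numbers. For tRF-Arg-ACG-003 the levels were 28.5, 46.4 and 36.9 CPM in control and 34.2, 36.6 and 57.4 CPM in CNV. Control replicate 2 and CNV replicate 3 were the high pools of their groups, and the groups overlapped (log2 0.19, SE 0.27). The same pools were the high ones for tRF-Arg-ACG-002, at 11.9, 28.1 and 19.6 CPM in control and 12.3, 19.7 and 32.7 CPM in CNV (log2 0.11, SE 0.40). Without CNV replicate 3 both fold changes turned, to -0.15 for tRF-Arg-ACG-003 and -0.40 for tRF-Arg-ACG-002, and without control replicate 1 that of tRF-Arg-ACG-002 was -0.13. The rarer rows tRF-Arg-ACG-004, tRF-Arg-ACG-005 and tRF-Arg-ACG-008 had log2 fold changes of -0.35, -0.25 and -0.53, with overlapping groups. The untested tRF-Arg-ACG-001 had 5 to 42 counts per library.

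The proportions of the ACG fragments thus varied from library to library, within groups as well as between them. A division by serial number, made after the values were seen and therefore not tested, gave 6 rows from 001 to 008 and 6 from 011 to 017. What the numbers encode, such as the end of the tRNA or the length, is not stated in the labels or files. The low-numbered rows summed to 56.7, 98.4 and 72.1 CPM in control and 61.3, 70.6 and 104 CPM in CNV. The high-numbered rows summed to 120, 112 and 114 CPM in control and 195, 208 and 151 CPM in CNV. Their share of the ACG counts was 67.9%, 53.1% and 61.3% in control and 76.1%, 74.6% and 59.3% in CNV. CNV replicate 3 lay inside the control range in this share, while the other CNV pools lay above it.

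Ratios between abundant ACG fragments were also taken inside each library, as a description of the same counts. There were 1.62 to 2.18 counts of tRF-Arg-ACG-012 per count of tRF-Arg-ACG-013 over the 6 libraries, and 0.358 to 0.606 counts of tRF-Arg-ACG-002 per count of tRF-Arg-ACG-003. The ratio of tRF-Arg-ACG-012 to tRF-Arg-ACG-003 was 2.07, 1.29 and 1.58 in control and 3.04, 3.02 and 1.43 in CNV. That of tRF-Arg-ACG-012 against tRF-Arg-ACG-002 ran from 2.13 in control replicate 2 to 8.49 in CNV replicate 1. The share of tRF-Arg-ACG-012 in the ACG counts was 33.3%, 28.4% and 31.2% in control and 40.6%, 39.7% and 32.3% in CNV (difference 6.53 percentage points, exact permutation p = 0.2, adjusted over 2 anticodons 0.4), with CNV replicate 3 below control replicate 1.

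**Figure D4:**
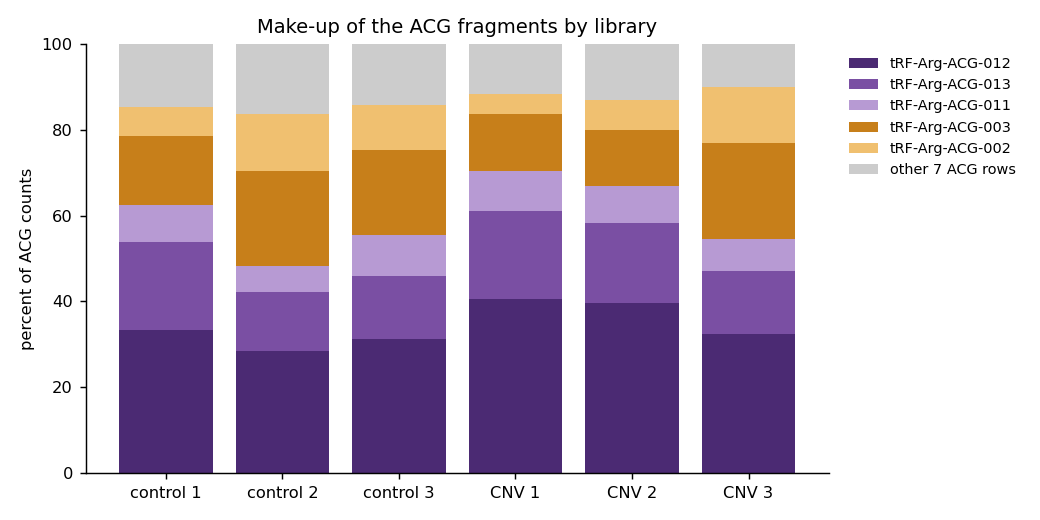
Make-up of the ACG counts of each library (y axis, percent of ACG counts; a stacked bar per library). The purple fragments 011 to 013 fill more of the bars of CNV replicates 1 and 2, while the orange fragments 002 and 003 fill more of control replicate 2 and CNV replicate 3.

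The 6 TCG rows were all rare, with 3 to 63 counts per library. The most abundant was tRF-Arg-TCG-011, at 3.62, 4.53 and 5.31 CPM in control and 2.72, 3.98 and 5.67 CPM in CNV. Its groups overlapped (log2 -0.11, SE 0.32), and its share of the TCG counts was 27.3%, 27.8% and 28.6% in control and 21.9%, 31.3% and 39.3% in CNV (exact permutation p = 0.7). The other tested rows were tRF-Arg-TCG-002, tRF-Arg-TCG-010, tRF-Arg-TCG-012 and tRF-Arg-TCG-014, with log2 fold changes of -0.63, -0.17, -0.28 and -0.12. The untested tRF-Arg-TCG-015 was at 1.99 ± 0.487 CPM in control and 1.28 ± 0.721 CPM in CNV. Each of the 5 tested fold changes was negative, and none passed even without adjustment. Over the alternatives 3 of these 5 changed sign at least once, tRF-Arg-TCG-010, tRF-Arg-TCG-011 and tRF-Arg-TCG-014. Reaching the listed level only in control libraries were tRF-Arg-TCG-002, tRF-Arg-TCG-010, tRF-Arg-TCG-012 and tRF-Arg-TCG-015.

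The single TCT fragment had the largest fold change of the family and few reads. For tRF-Arg-TCT-007 the counts were 9, 67 and 21 in control and 5, 1 and 11 in CNV, as given above with its shares. The log2 fold change was -1.78 (SE 0.61, adjusted p 0.203 in edgeR), with groups that overlapped in CPM. Without a filter on low counts it was called (adjusted p 0.0036 in edgeR), where 3.77% of all small RNAs were. This row reached the listed level only in control libraries. Leaving out 1 library gave -2.67 without CNV replicate 3 and -1.37 without CNV replicate 2, the ends of the range. The CCT fragment tRF-Arg-CCT-001 was at 2.25 ± 0.468 and 1.64 ± 0.474 CPM (log2 -0.46, SE 0.35, adjusted p 0.568 in edgeR).

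Arginine was then set against the glycine, glutamate and lysine tRF families. The glycine tRFs held most tRF counts, 191871 to 468130 per library. Arginine made up 0.354%, 0.574% and 0.426% of the tRF counts in control and 0.284%, 0.274% and 0.452% in CNV, which overlapped (difference -0.114 percentage points, exact permutation p = 0.3). Without the glycine tRFs the share was 1.81%, 2.33% and 2.02% in control and 2.26%, 2.10% and 2.44% in CNV, so that the difference turned to 0.211 points (exact permutation p = 0.3). The log2 ratio of arginine to glycine counts differed by -0.56 between the groups, that to glutamate by -0.02 and that to lysine by 0.31 (exact permutation p = 0.3, 0.9 and 0.6; each 0.9 adjusted over the 3 families).

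Summed by amino acid and scaled with the factors of the main table, arginine had a log2 fold change of 0.39 (SE 0.14), the third highest of 20 families after glycine at 0.99 and glutamate at 0.43. The 20 values ran from -0.40 to 0.99 with a median of 0.12, 14 were positive, and none was called in edgeR's quasi-likelihood test. At an unadjusted p under 0.05 there were 3, all higher, where 10.8% of the single tested small RNAs were higher. Among the 403 tested tRFs of other amino acids, 49 were higher and 17 lower at an unadjusted p under 0.05, and 0 were called after adjustment.

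**Figure D5:**
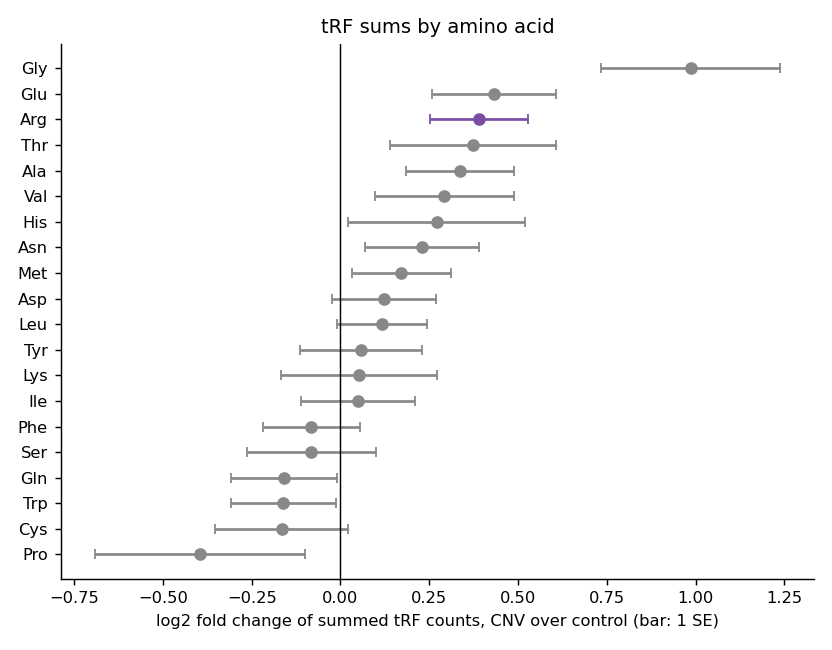
Log2 fold change of the summed tRF counts of each amino acid (x axis, CNV over control; bars 1 standard error), with arginine in purple. Arginine at 0.39 lies between glutamate at 0.43 and threonine at 0.37, below glycine at 0.99.

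Marker miRNAs of 8 cell types were present: none of the 34 listed was at 0 in any library. The lists include photoreceptors, retinal neurons and skeletal muscle, which are not part of the RPE, choroid and sclera named above. In every library the photoreceptor and skeletal muscle sums were above the RPE sum, and the source of these miRNAs was not tested. The summed level of 6 neuron and retina miRNAs ran from 14830 to 21330 CPM in control and from 8222 to 13190 CPM in CNV, and that of 4 RPE miRNAs from 6838 to 7039 and from 4571 to 6543 CPM. Both were lower in every CNV pool, as all members of these lists were by their means. The 3 photoreceptor miRNAs summed to 49330 to 75750 CPM in control and 24730 to 49450 CPM in CNV, and the 6 leukocyte miRNAs to 2608 to 3637 and 3550 to 5834 CPM, both with overlap. CNV replicate 3, the pool with the lowest tRF-Arg-ACG-012 of its group, had the highest neuron, photoreceptor and endothelium sums of the CNV pools. Of these pools it had the lowest leukocyte, red cell, skeletal muscle and fibroblast and mural sums. Its RPE sum, at 4571 CPM, was the lowest of all 6 libraries. The red cell list (4 miRNAs) ran from 1337 to 2173 and from 978 to 4288 CPM, skeletal muscle (5) from 34870 to 92200 and from 58190 to 92050, fibroblast and mural cells (4) from 57310 to 72850 and from 69060 to 90270, and endothelium (2) from 35230 to 45050 and from 35430 to 42860, all with overlap. The part of these cells in the arginine results was not tested, and in pooled tissue fewer cells of a type and less RNA per cell cannot be told apart. Outside the family, the small RNAs whose log2 levels over the 6 libraries were most like the arginine sum were miR-199a-3p and miR-199b-3p, which have identical values, then miR-6937-5p, miR-296-3p and miR-541-5p, with Pearson's r from 0.970 to 0.980, given as a description.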

How the data were processed

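Small RNA reads (inserts of 14 to 40 nt) were sequenced on an Illumina NextSeq, per the labels' protocols. The authors deposited a table per library with a read count for each miRNA and tRNA fragment. Of the tools used, the submitters' processing notes name Bowtie. The sources used here give no version, mismatch limit, build, tRNA reference or rule for reads with several matches. The deposited CPM column has its own total for tRNA fragments and served only to recover that total.

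Counts were analysed in R 4.3.3. After filterByExpr (minimum count 10, minimum total 15) and TMM scaling, CNV was tested against control over all 997 small RNAs with edgeR 4.0.16 (quasi-likelihood test, no covariate), with Benjamini-Hochberg adjustment at 0.05. The procedure was also tested on simulated data. Sums by anticodon and for the family replaced the member rows in refits. Ratios and shares were compared by two-sided exact permutation tests, in which 3 against 3 cannot give a p under 0.1. DESeq2 1.42.0, limma-voom (limma 3.58.1), other scalings and filters, and leaving out each library were alternatives. Groups and replicate numbers came from the sample titles, and replicates of a group differed beyond counting noise.

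Given library by library were the most abundant member of each anticodon and, of members with a mean of at least 10 CPM, up to 5 with the smallest p in each direction and those with groups apart; the rest are summarised. The sequences, marker lists, members and this rule were chosen with earlier results of these data known.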

Additional observations from a re-analysis of the deposited data

How the results depend on the processing

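The direction of ACG against each other anticodon was the same under every alternative run, with log2 differences of 0.51 to 0.82 for TCG, 0.65 to 1.08 for CCT and 1.59 to 3.02 for TCT. Leaving out 1 library could not have turned it, since the groups did not overlap in these ratios. The replicate block leaves the difference itself unchanged, so these alternatives do not test the direction. None of the ratios to ACG could pass an exact test with 3 libraries per group. They share the ACG sum, and most rows of the other anticodons reached the listed level only in control libraries. The number of members called was 0 in the main edgeR fit. It was 1 in DESeq2 (tRF-Arg-ACG-012), where 5.66% of the small RNAs with an adjusted p were called. With no filter on low counts edgeR called 1 (tRF-Arg-TCT-007), where 3.77% of all small RNAs were called. That row reached the listed level only in control libraries. Without this filter the TCT sum was also the 1 anticodon sum called, among 88 of 2318 rows called in the summed table. The log2 fold change of tRF-Arg-ACG-002 turned to -0.0085 with total counts only and to -0.21 with the deposited totals, and that of tRF-Arg-ACG-003 to -0.13 with the latter. Leaving out each library gave ranges of -0.40 to 0.38 and -0.15 to 0.32 for these, -0.49 to 0.11 for tRF-Arg-TCG-011, -0.41 to 0.11 for CCT against TCG, and -1.30 to 7.40 points for the share of tRF-Arg-TCG-011 in TCG. The arginine share difference turned to 0.0041 points over all small RNAs and to 0.211 points without glycine tRFs. The cause of these changes was not tested. Replicate numbers are not said to pair the pools, and deviations of same-numbered pools correlated at 0.29, 0.03 and 0.17. Control replicate 2 did not correlate best with its own number. With a replicate block the ACG-012 log2 fold change was 0.74 (adjusted p 0.0527), 0 members were called and all small RNA calls went from 3 to 36. Counts of 1 to 67 per library limit TCT and CCT.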
